A study of Homo sapiens with 6 samples.

Results

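The 10 genes described here are the components of the insulin-like growth factor axis that the RNA-seq counts of LNCaP cells list under the NCBI Gene numbers of *IGF1R*, *IGF2R*, *INSR*, *IRS1*, *IRS2*, *IGFBP2*, *IGFBP3*, *IGFBP5*, *IGF2BP2* and *IGF2BP3*. They were chosen by symbol, with earlier results of these data known, and they are 10 of the 29806 gene numbers counted. LNCaP cells are an established line of androgen-responsive human prostate cancer. *PRKRA* is the gene of PACT, a protein that binds RNA duplexes. The groups compared were LNCaP parental cells (wild type, n = 3 dishes) and PACT KO cells (LNCaP with *PRKRA* knocked out by CRISPR, n = 3 dishes). Both were grown in RPMI-1640 medium with fetal bovine serum, and RNA was taken 48 h after plating at about 80% confluency. The study's supplement describes the PACT KO cells as 1 clone, so the p-values below measure the spread between dishes, and a change due to the loss of PACT cannot be told apart from a difference between this clone and the parental cells.

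The insulin-like growth factors IGF1 and IGF2 bind IGF1R, a receptor tyrosine kinase at the cell surface that is closely related to the insulin receptor INSR. The active receptors phosphorylate the docking proteins IRS1 and IRS2, which recruit PI3K and so switch on AKT and mTOR. A family of secreted binding proteins holds the factors outside the cell, proteases such as the kallikreins release them, and in the prostate this axis is known for supporting the growth and survival of epithelial cells.

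The 250 bases upstream of 1 RefSeq start of each gene (GRCh38.p14, the assembly of the hg38 build that the submitters' processing notes name) are shown for the binding protein that fell and for the 2 members with the largest rises. They are chr2:216633170-216633419 on the + strand for *IGFBP2*, chr13:109786584-109786833 on the - strand for *IRS2* and chr7:23470492-23470741 on the - strand for *IGF2BP3*. The RefSeq table holds 3 windows for *IGFBP2*, and the one shown belongs to the first-listed mRNA and lies inside the gene span given below, downstream of an alternative start. Each is written 5′ to 3′ on the strand of its gene. Capitals mark matches on either strand to GGGCGG, the GC box, or to CACGTG, the E-box.
IGFBP2: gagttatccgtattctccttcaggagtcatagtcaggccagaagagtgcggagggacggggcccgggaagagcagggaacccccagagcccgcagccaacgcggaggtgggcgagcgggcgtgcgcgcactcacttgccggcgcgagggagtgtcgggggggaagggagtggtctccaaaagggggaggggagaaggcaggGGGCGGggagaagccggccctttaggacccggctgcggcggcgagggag
IRS2: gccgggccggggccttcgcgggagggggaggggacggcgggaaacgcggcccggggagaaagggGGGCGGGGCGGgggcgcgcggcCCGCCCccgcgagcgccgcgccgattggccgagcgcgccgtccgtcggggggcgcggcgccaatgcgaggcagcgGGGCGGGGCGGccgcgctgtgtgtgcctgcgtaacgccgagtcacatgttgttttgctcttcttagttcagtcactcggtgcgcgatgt
IGF2BP3: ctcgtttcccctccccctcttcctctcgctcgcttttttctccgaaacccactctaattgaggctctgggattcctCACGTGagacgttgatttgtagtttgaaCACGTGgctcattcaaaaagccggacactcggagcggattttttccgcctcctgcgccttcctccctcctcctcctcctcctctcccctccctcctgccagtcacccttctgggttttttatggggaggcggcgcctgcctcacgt
GENCODE release 29 places the first exon of *IGFBP2* 25 bases further upstream, so that the end of its window is transcribed in that annotation. For *IRS2* and *IGF2BP3* it places the start 15 and 24 bases further downstream, so these windows end before the transcribed part. The 3 windows differ in their letters. The *IGFBP2* window holds 1 GC box and is 69.2% G and C. The *IRS2* window holds 5 GC boxes, some of them overlapping, and is 76.4% G and C. The *IGF2BP3* window holds 0 GC boxes and 2 E-boxes, and is 56.8% G and C. The GC box was in the windows of 8 of the 10 members and in 42.6% of the 35116 windows of this length in the RefSeq table, and the E-box in 2 of the 10 members (*IGF2R* and *IGF2BP3*) and in 6.34% of all windows. The hexamer of the androgen response element (AGAACA) and the forkhead box O motif (GTAAACA) were in 0 of the 10 windows, against 12.4% and 2.98% of all windows. The median G and C content was 77.4% in the members' windows and 58.0% in all. These matches are descriptions of letters, and no binding was measured.

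The libraries held 19930060 to 24940838 reads counted on genes. Counts were scaled by edgeR's TMM method and are given as CPM, reads scaled to a library of standard size, and 3 reads, taken as the limit of detection, were 0.121 to 0.148 CPM. *PRKRA* itself fell by 1.57 on the log2 scale in PACT KO cells (SE 0.069, edgeR FDR = 8.83e-21), to 12.5 ± 0.995 CPM (SD, n = 3) from 37.1 ± 1.96 CPM. The identity of the cells was checked against marker genes. All 10 luminal prostate markers were detected, with a summed level of 3818 to 3849 CPM in LNCaP parental and 3853 to 3903 CPM in PACT KO cells. Basal markers summed to at most 0.185 CPM, with *KRT5* at 0, and blood markers to at most 0.185 CPM, with *CD3E* at 0. Neuroendocrine markers summed to at most 3.02 CPM, with *INSM1* at 0. Single genes of other lists did move. *COL1A1*, a stromal collagen, rose by 43.4% to 41.7 ± 2.76 CPM in PACT KO cells (SD, n = 3), with *COL1A2* at 0 reads in all 6 libraries. *VWF*, an endothelial gene, fell from 25.4 ± 1.43 to 16.6 ± 1.03 CPM, with *PECAM1* and *CDH5* at 0. The part of these levels in the results below was not tested. In bulk RNA, fewer cells of a type and less RNA per cell cannot be told apart.

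Of the 10 members, 8 had enough reads to be tested among 14462 genes by edgeR's quasi-likelihood test, 2-sided, with Benjamini-Hochberg adjustment over all of them (FDR). An FDR under 0.01 was reached by 4 of the 8, where 34.2% of all genes tested reached it. *IGFBP2* was the 1 that fell, against 18.8% of all genes, and *IGF1R*, *IRS2* and *IGF2BP3* were the 3 that rose, against 15.3% of all genes. A differentially expressed gene (DEG) also had to change by at least 1.5-fold. *IGFBP2* met this as 1 lower DEG, where 2.65% of all genes tested were lower DEGs. The count of higher DEGs among the members was 0, where 3.07% of all genes tested were higher DEGs, although *IRS2* (1.49-fold) and *IGF2BP3* (1.49-fold) lay just under the threshold. In 5 of the 8 tested members the groups did not overlap, against 52.2% of all genes tested. The median log2 fold change (PACT KO over LNCaP parental) was -0.013 over the 8 members and 0.00044 over all genes tested, and the median absolute log2 fold change was 0.24 and 0.15.

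**Figure D1:**
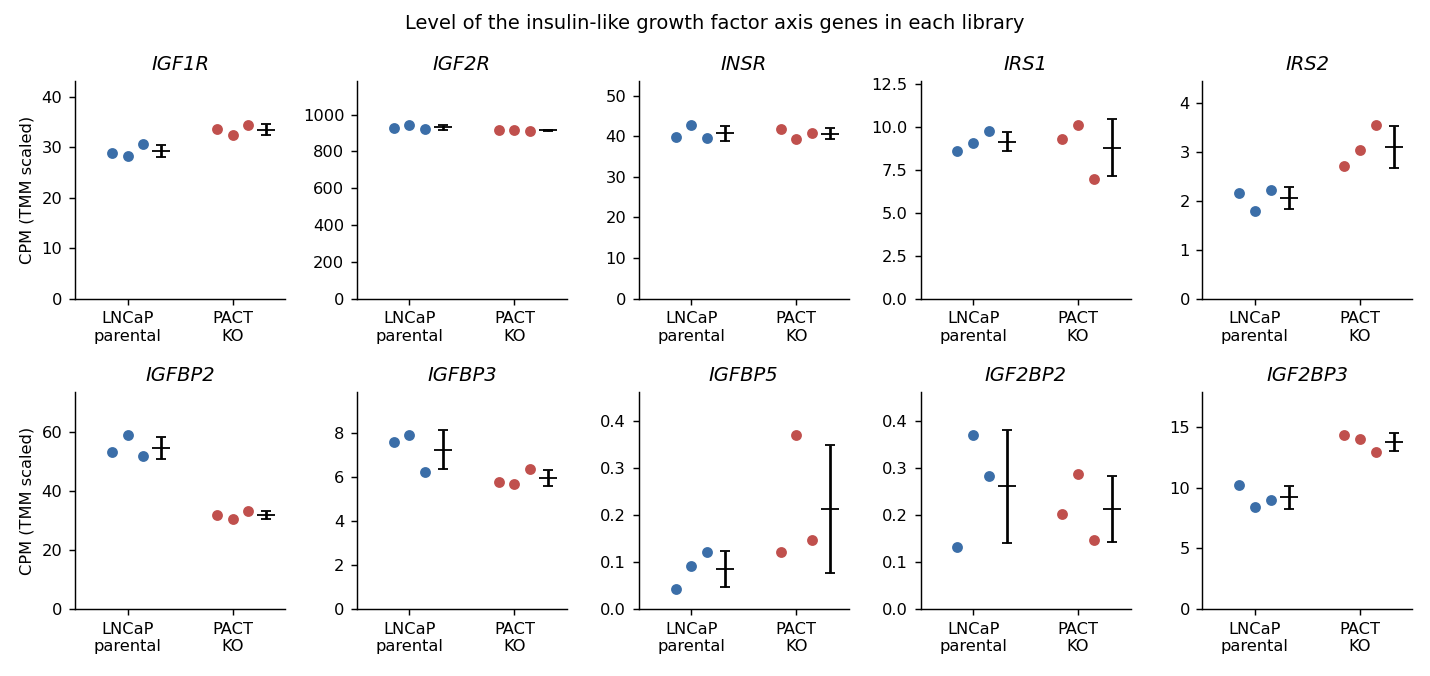
TMM-scaled CPM of each of the 10 genes in each library, with 1 panel per gene and its own linear axis from 0. Blue points are the 3 LNCaP parental libraries, red points the 3 PACT KO libraries, and black bars the mean ± SD of each group. *IGFBP2* is lower in all 3 PACT KO libraries, *IRS2*, *IGF2BP3* and *IGF1R* are higher, and *IGFBP5* and *IGF2BP2* stay under 0.4 CPM.

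The receptors came first among the roles. *IGF1R* (NCBI Gene number 3480, chromosome 15, 98648539 to 98964530) encodes the main signalling receptor. It had 653, 612 and 758 reads in LNCaP parental replicates 1, 2 and 3, and 828, 787 and 697 in PACT KO replicates 1, 2 and 3, or 28.3 to 30.6 CPM against 32.4 to 34.5 CPM. All 3 PACT KO libraries thus lay above all 3 parental ones after scaling, by a small margin. The rise was 14.2% (log2 fold change 0.19, SE 0.054, FDR = 0.00348), with 29.2 ± 1.22 CPM in LNCaP parental and 33.4 ± 1.06 CPM in PACT KO cells (SD, n = 3). This call was lost in DESeq2 (FDR = 0.0131), and in edgeR without PACT KO replicate 3 (FDR = 0.0199), LNCaP parental replicate 1 (FDR = 0.0256) or LNCaP parental replicate 2 (FDR = 0.0339).

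*INSR* (Gene number 3643, chromosome 19, 7112265 to 7294414), the receptor of insulin that also binds the growth factors, did not differ by the test. Its reads were 902, 927 and 978 in LNCaP parental and 1035, 955 and 824 in PACT KO cells, or 40.7 ± 1.89 and 40.6 ± 1.32 CPM (SD, n = 3). The groups overlapped. The log2 fold change of *INSR* was -0.00063, with a 95% interval of -0.093 to 0.092 (FDR = 0.993), so the interval leaves out changes as large as 1.5-fold in either direction.

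*IGF2R* (Gene number 3482, chromosome 6, 159969082 to 160111504) encodes the cation-independent mannose 6-phosphate receptor, which carries IGF2 to the lysosome and has no kinase of its own. It had far more reads than the signalling receptors, with 21015, 20457 and 22833 in LNCaP parental and 22611, 22328 and 18402 in PACT KO cells. Its levels of 931 ± 13.1 and 914 ± 3.99 CPM (SD, n = 3) did not overlap between groups, but the difference was small and did not pass the test (log2 fold change -0.026, 95% interval -0.077 to 0.025, FDR = 0.418).

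The 2 substrates differed from each other. *IRS1* (Gene number 3667, chromosome 2, 226731312 to 226799820), the docking protein used by both receptors, had 195, 196 and 241 reads in LNCaP parental and 229, 246 and 140 in PACT KO cells. PACT KO replicate 3 was the lowest of the 6 libraries at 6.92 CPM, while PACT KO replicate 2 was the highest at 10.1 CPM, so the groups overlapped. The coefficient of variation in PACT KO was 18.8%, where counting error alone gives 6.98%. *IRS1* did not pass the test (9.13 ± 0.574 and 8.77 ± 1.65 CPM, log2 fold change -0.050, 95% interval -0.27 to 0.17, FDR = 0.738), and without PACT KO replicate 3 its log2 fold change was 0.090.

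*IRS2* (Gene number 8660, chromosome 13, 109752695 to 109786583), the second docking protein, rested on fewer reads. They numbered 49, 39 and 55 in LNCaP parental and 67, 74 and 72 in PACT KO cells, or 1.80 to 2.22 CPM against 2.71 to 3.56 CPM. Every PACT KO library was above every parental one, and PACT KO replicate 3 was the highest. *IRS2* rose by 49.0% (2.06 ± 0.225 to 3.11 ± 0.428 CPM, log2 fold change 0.58, SE 0.16, FDR = 0.00299). The call was lost in edgeR without PACT KO replicate 3 (FDR = 0.0294) or LNCaP parental replicate 2 (FDR = 0.0230), in limma-voom (FDR = 0.0109) and in DESeq2 (FDR = 0.0325). The 1.5-fold threshold was passed without PACT KO replicate 1 (log2 fold change 0.67), LNCaP parental replicate 3 (0.64) or LNCaP parental replicate 1 (0.61). The *IRS2* promoter printed above was the one with GC boxes in overlapping runs.

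Among the binding proteins, *IGFBP2* (Gene number 3485, chromosome 2, 216632828 to 216664436) carried the largest change of the 8 tested members. It encodes a secreted carrier of IGF1 and IGF2 that is abundant in many epithelial tumours. It had 1212, 1274 and 1286 reads in LNCaP parental and 790, 746 and 670 in PACT KO cells. The parental libraries lay at 51.9 to 58.9 CPM and the PACT KO libraries at 30.7 to 33.1 CPM, a wide gap with no overlap. *IGFBP2* fell by 41.7% (54.7 ± 3.69 to 31.9 ± 1.23 CPM, SD, n = 3), with a log2 fold change of -0.78 (SE 0.047, 95% interval -0.87 to -0.68, FDR = 1.53e-16). It passed the FDR and the 1.5-fold threshold in 17 of 17 alternatives of test, scaling, filter, block and library left out, with a log2 fold change of -0.81 to -0.72. It ranked 234 by size among the 383 lower DEGs. An exact permutation test over the 6 libraries gives *IGFBP2* p = 0.10, the smallest that 3 dishes against 3 allow, so the call rests on the model fitted across genes.

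*IGFBP3* (Gene number 3486, chromosome 7, 45912245 to 45921272), the main carrier of IGF1 in the circulation, had 173, 171 and 155 reads in LNCaP parental and 143, 139 and 129 in PACT KO cells. LNCaP parental replicate 3 at 6.26 CPM lay below PACT KO replicate 3 at 6.38 CPM, and the other 2 parental libraries lay above all 3 PACT KO ones. *IGFBP3* did not pass the FDR of 0.01 (7.26 ± 0.881 and 5.96 ± 0.365 CPM, log2 fold change -0.28, SE 0.11, 95% interval -0.51 to -0.062, FDR = 0.0324). Without LNCaP parental replicate 3 it passed (log2 fold change -0.38, FDR = 0.00674).

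*IGFBP5* (Gene number 3488, chromosome 2, 216672105 to 216695549), a carrier that binds the matrix around the cell, was barely detected and did not pass the filter for the test. It had 1, 2 and 3 reads in LNCaP parental and 3, 9 and 3 in PACT KO cells. No parental library and only PACT KO replicate 2 exceeded the detection limit of 3 reads, so these reads are too few to give a size. After scaling the groups did not overlap, although LNCaP parental replicate 3 and PACT KO replicate 1 both lay at 0.121 CPM, and without the filter on low counts edgeR gave *IGFBP5* an FDR of 0.258. It lies 7.669 kb from *IGFBP2* on the other strand.

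The IGF2 mRNA-binding proteins bind many transcripts besides that of IGF2 and take part in their stability and translation. *IGF2BP3* (Gene number 10643, chromosome 7, 23310209 to 23470491), a fetal protein that is found again in many tumours, had 232, 182 and 222 reads in LNCaP parental and 353, 340 and 261 in PACT KO cells. The parental libraries lay at 8.42 to 10.2 CPM and the PACT KO libraries at 12.9 to 14.3 CPM, with a clear gap. *IGF2BP3* rose by 49.3% (9.20 ± 0.923 to 13.7 ± 0.723 CPM, log2 fold change 0.58, SE 0.092, 95% interval 0.39 to 0.76, FDR = 2.08e-06). Its FDR stayed under 0.01 in 17 of 17 alternatives, and it passed the 1.5-fold threshold without PACT KO replicate 3 (log2 fold change 0.62) or LNCaP parental replicate 1 (0.66). Scaling by the upper quartile or by library totals alone also took *IRS2* and *IGF2BP3* past 1.5-fold, for 2 higher DEGs in place of 0.

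*IGF2BP2* (Gene number 10644, chromosome 3, 185643130 to 185825042), its relative, had 3, 8 and 7 reads in LNCaP parental and 5, 7 and 3 in PACT KO cells. It did not pass the filter for the test (FDR = 0.789 in edgeR without the filter), and its libraries overlapped. The *IGF2BP3* window printed above, with its pair of E-boxes, thus belongs to the only well-detected gene of this family here.

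**Figure D2:**
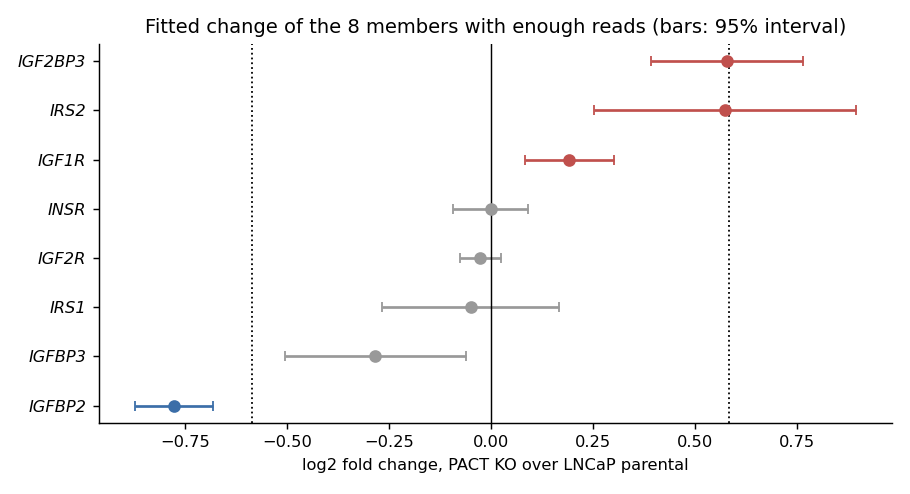
Log2 fold change of the 8 tested members, PACT KO over LNCaP parental, from edgeR's quasi-likelihood fit. Points are estimates, bars the 95% interval, blue and red mark FDR under 0.01 with a fall or a rise, grey marks the rest, and dotted lines mark 1.5-fold. Only *IGFBP2* has its whole interval beyond a dotted line, and the points of *IRS2* and *IGF2BP3* lie just inside the other.

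To set the members beside each other, levels were divided by the length of all annotated exons, as RPKM, CPM per kilobase of exon. In LNCaP parental cells the levels were 52.2 ± 0.732 RPKM (SD, n = 3) for *IGF2R*, 11.5 ± 0.775 for *IGFBP2*, 3.89 ± 0.181 for *INSR* and 2.10 ± 0.0874 for *IGF1R*. They were 1.59 ± 0.193 RPKM for *IGFBP3*, 1.08 ± 0.108 for *IGF2BP3*, 0.917 ± 0.0577 for *IRS1* and 0.253 ± 0.0276 for *IRS2*. The scavenging receptor and a secreted carrier thus led the signalling receptors, and the docking proteins came last among the tested genes. *IGF2BP2* (0.0552 ± 0.0254 RPKM) and *IGFBP5* (0.0133 ± 0.00605 RPKM) stood at the end. No neighbours in this parental order had overlapping libraries.

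In PACT KO cells the order was the same except that *IGF2BP3* (1.61 ± 0.0850 RPKM) stood above *IGFBP3* (1.30 ± 0.0798 RPKM). *IGFBP2* was 6.70 ± 0.259 RPKM and kept its second place after *IGF2R* (51.2 ± 0.223 RPKM). *INSR* was 3.89 ± 0.126 RPKM, *IGF1R* 2.40 ± 0.0760, *IRS1* 0.881 ± 0.166 and *IRS2* 0.382 ± 0.0526. Only *IGF2BP2* (0.0450 ± 0.0148 RPKM) and *IGFBP5* (0.0331 ± 0.0212 RPKM) overlapped with the neighbour in the PACT KO order. The lengths come from GENCODE, which may not be the annotation the reads were counted on.

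The rest of the pathway was described with a list of 57 further genes by role, of which 43 were tested. An FDR under 0.01 was reached by 12 that fell and 8 that rose, and 23 did not pass, where 18.8% of all genes tested fell and 15.3% rose. The split depended on the scaling, since upper-quartile factors or library totals gave 9 that fell and 12 that rose, and without LNCaP parental replicate 2 it was 9 and 5. The median log2 fold change over the 43 was -0.016. Only *KLK3* and *KLK2* were DEGs, both lower, and 0 of the 43 were higher DEGs. Both are androgen-regulated genes, also used above as luminal markers, and without them the list had 10 that fell and 8 that rose. A rise of *GRB14* made 1 higher DEG without PACT KO replicate 1 or LNCaP parental replicate 2.

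The ligands were scarce. *IGF1* had 37 to 59 reads in all 6 libraries and did not pass the test (2.17 ± 0.550 and 1.98 ± 0.0768 CPM, log2 fold change -0.13, SE 0.18, FDR = 0.610). *IGF2* and *INS* were at 0 reads in every library, as was *INSRR*, the orphan relative of the receptors. The IGF2 gene shares its exons with the readthrough gene *INS-IGF2*, and reads that fit both may have been left uncounted, so the 0 for *IGF2* is uncertain. Of 6 other binding proteins and partners, 0 were tested, and *IGFBP1*, *IGFBP4*, *IGFBP6* and *IGFBP7* had at most 2 reads in any library. *IGF2BP1*, the third IGF2 mRNA-binding protein, had at most 1 read.

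The proteases that cut binding proteins, with the inhibitors of such proteases, had 4 tested genes of 6, of which 3 fell and 0 rose (18.8% and 15.3% of all genes tested). *KLK3*, prostate-specific antigen, a protease known to cut IGFBP3, had 1513, 1325 and 1569 reads in LNCaP parental and 293, 261 and 226 in PACT KO cells. *KLK3* fell by 82.3% (63.8 ± 2.70 to 11.3 ± 0.568 CPM, log2 fold change -2.50, SE 0.055, FDR = 2.55e-30). *KLK2*, its neighbour and close relative, fell by 44.3% (26.9 ± 1.60 to 15.1 ± 1.26 CPM, log2 fold change -0.84, SE 0.073, FDR = 3.66e-12), and reads that the kallikreins share are uncertain. *STC2*, stanniocalcin 2, an inhibitor of the pappalysins that cut IGFBP4 and IGFBP5, fell by 24.3% (99.2 ± 3.84 to 75.1 ± 3.20 CPM, FDR = 1.30e-11). Its relative *STC1* was not past the FDR (log2 fold change 0.14), and the pappalysins *PAPPA* and *PAPPA2* themselves had at most 4 reads.

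Of the adaptors and receptor regulators, 3 of 11 tested genes fell and 4 rose (18.8% and 15.3% of all genes tested), none of them by 1.5-fold. *GAB1*, a docking protein related in role to the IRS proteins, rose from 12.5 ± 0.738 to 16.3 ± 1.05 CPM (log2 fold change 0.38, SE 0.084, FDR = 0.000242). *SHC1*, the adaptor that leads to RAS, fell from 133 ± 5.03 to 120 ± 2.67 CPM (log2 fold change -0.14, FDR = 0.000301), and *RACK1*, a scaffold of IGF1R, had a log2 fold change of -0.11 (FDR = 0.000510), which was lost without PACT KO replicate 3 (FDR = 0.0101) or LNCaP parental replicate 1 (FDR = 0.0187). The others past the FDR, named after their values were seen, were *PTPN11* (-0.11), *GRB14* (0.52), *SOS1* (0.18) and *GRB10* (0.087). *GRB10* and *GRB14* bind active insulin and IGF1 receptors and dampen them. Each of these 4 calls was lost without at least 1 library, with an FDR of up to 0.0767 for *GRB14* and 0.0507 for *GRB10* (both without LNCaP parental replicate 3), 0.0744 for *SOS1* (without LNCaP parental replicate 2) and 0.0117 for *PTPN11* (without PACT KO replicate 3).

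Of the PI3K, AKT and mTOR genes, 6 of 23 tested genes fell and 2 rose (18.8% and 15.3% of all genes tested). The falls include *MTOR* (log2 fold change -0.10) and *TSC2* (-0.098), named after their values were seen, whose calls were lost in 11 and 12 of 17 alternatives, among them each of the 3 other scalings and 4 and 5 of the 6 refits that leave out a library (FDR up to 0.0545 for *MTOR* without LNCaP parental replicate 2 and 0.0514 for *TSC2* without PACT KO replicate 1). The kinase *RPS6KB2* (log2 fold change -0.26, SE 0.033, FDR = 1.61e-08), the kinase *AKT1* (-0.21, SE 0.027, FDR = 3.75e-08) and *PDPK1*, the kinase that activates AKT (-0.21, SE 0.035, FDR = 6.48e-06), had the smallest p. In PACT KO cells *AKT1* was 240 ± 4.41 CPM, against 277 ± 3.89 CPM in LNCaP parental cells. The 2 that rose, named after their values were seen, were the PI3K regulatory subunits *PIK3R1* (0.18) and *PIK3R3* (0.12). Of the 4 FOXO factors, which AKT keeps out of the nucleus, 2 rose and 0 fell, where 15.3% and 18.8% of all genes tested did. *FOXO3* rose from 199 ± 2.48 to 239 ± 4.24 CPM (log2 fold change 0.27, SE 0.028, FDR = 2.67e-10) and *FOXO1* from 7.20 ± 0.342 to 9.04 ± 0.659 CPM (0.33, SE 0.098, FDR = 0.00561). The *FOXO1* call was lost in 4 of the 6 refits that leave out a library (FDR up to 0.0305, without PACT KO replicate 1). *FOXO6* did not pass (-0.17, FDR = 0.441).

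**Figure D3:**
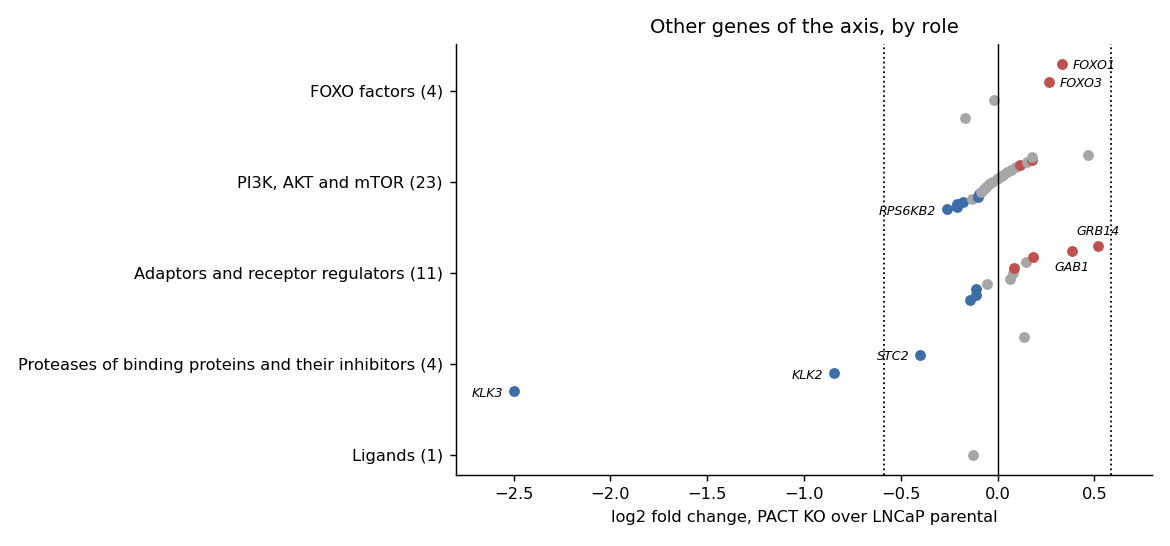
Log2 fold change, PACT KO over LNCaP parental, of the 43 tested genes of the wider list, in rows by role with the number tested. Blue and red points have an FDR under 0.01 and fell or rose, grey points did not pass, dotted lines mark 1.5-fold, height within a row only orders the points, and names are given for genes past the FDR with an absolute log2 fold change over 0.25. *KLK3* (-2.50) and *KLK2* (-0.84) stand outside the dotted lines, and the other 41 genes lie between them.

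The genes beside the members on the chromosome were taken as the 2 nearest tested genes on each side, 36 different genes that are not members. An FDR under 0.01 was reached by 4 that fell and 4 that rose, where 34.2% of all genes tested passed, and 3 of the 36 were higher DEGs, where 3.07% of all genes tested were. Beside *IGFBP2* and *IGFBP5*, *TNS1*, a focal adhesion protein 1135 kb from *IGFBP2*, rose (18, 15 and 25 reads to 66, 58 and 60 reads, log2 fold change 1.66, SE 0.21, FDR = 1.93e-08). The others there, *RPL37A*, its divergent transcript *RPL37A-DT* and *LOC101928487*, did not pass the test (log2 fold change -0.053, 0.022 and 0.18). None of these 4 genes passed the test as lower.

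Beside *IGFBP3*, the adenylate cyclase gene *ADCY1* rose (79.8 ± 1.17 to 112 ± 3.28 CPM, log2 fold change 0.49, SE 0.033, FDR = 4.56e-15). *TNS3*, a relative of *TNS1* that lies 1354 kb from *IGFBP3*, rose at a low level (1.17 ± 0.0534 to 1.99 ± 0.334 CPM, log2 fold change 0.75, SE 0.21, FDR = 0.00306). The *TNS3* call was lost in 4 of the 6 refits that leave out a library (FDR up to 0.0361, without PACT KO replicate 1). *SEPTIN7P2* (0.016) and *HUS1* (0.043) did not pass. Beside *IGF2R*, *TCP1*, a chaperonin subunit (-0.24, SE 0.026, FDR = 1.29e-09), and *MRPL18*, a mitochondrial ribosomal protein (-0.30, SE 0.032, FDR = 6.45e-10), fell on the log2 scale. The pseudogene *CHP1P2*, inside the span of *IGF2R*, did not pass (log2 fold change 0.062, FDR = 0.735). Beside *IRS1*, *COL4A4*, a chain of basement membrane collagen, rose from 11, 16 and 8 reads to 34, 31 and 23 reads (log2 fold change 1.31, SE 0.31, FDR = 0.000558). The other neighbours past the FDR, named after their values were seen, were *NR2F2*, 2308 kb from *IGF1R* (-0.18), and *TRA2B*, 89.5 kb from *IGF2BP2* (-0.26). *MALSU1* overlaps the span of *IGF2BP3*, and whether strand was used in counting is not given in the sources used here, so reads of the overlap are uncertain.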

How the data were processed

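PolyA RNA of 6 dishes was sequenced on an Illumina NovaSeq. The authors deposited counts, whole numbers of reads per NCBI Gene number, not normalized. The submitters' processing notes name bcl2fastq 2.20.0.422, STAR 2.5.3a, StringTie 1.3.3, featureCounts 1.5.3 and build hg38, and the study's methods name edgeR with TMM. The use of strand and the treatment of reads that fit several genes are not given in the sources used here, which affects overlapping and related genes. One row without a gene number (0.0688% to 0.0708% of a library) was left out.

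Counts were filtered by filterByExpr, scaled by TMM and tested with glmQLFit and glmQLFTest in edgeR 4.0.16 (R 4.3.3), with an FDR under 0.01 and 1.5-fold as thresholds. The SE is the absolute log2 fold change divided by the square root of F. The fit was first tested on simulated data. Alternatives used DESeq2 1.42.0, limma 3.58.1, other scalings, filters and thresholds, a replicate block and each library left out. Exact permutation tests used scipy 1.17.1.

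Symbols came from a RefSeq gene table of GRCh38.p14 (92.4% of gene numbers matched), exon lengths from GENCODE release 29 and promoter windows from a RefSeq table. All members were described. Of the other axis genes the text names each DEG and at most 3 of smallest p in each role, and of the neighbours each DEG and all those of *IGFBP2*, *IGFBP3*, *IGFBP5* and *IGF2R*, except that results of a few genes are not reported here. The members and lists were chosen with earlier results of these data known. Counting intervals and limits cover counting error only.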

Additional observations from a re-analysis of the deposited data

How the results depend on the processing

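Of 136 refits of the 8 tested members (17 each), 114 kept direction and side of the FDR of 0.01, 8 lost the call, 1 gained it and 13 changed sign. The sign changes were in members that did not pass. *INSR* was 0.0023 with RLE factors, 0.023 with upper-quartile factors, 0.029 with library totals, 0.0031 without the filter, 0.0055 with the CPM filter, 0.0019 in DESeq2 and 0.00046 in limma-voom, and -0.020 to 0.036 with 1 library left out. *IGF2R* was 0.0034 with library totals, and *IRS1* was -0.16 to 0.090 with 1 library left out. Without PACT KO replicate 3, *IRS1* was 0.090 and *INSR* 0.0030. Without PACT KO replicate 2, *INSR* was 0.024. Without LNCaP parental replicate 2, *INSR* was 0.036, and without LNCaP parental replicate 3, *IRS1* was 0.0027. Calls of 3 rising members became 1 in DESeq2, and 1 to 3 with 1 library left out. Falling members past the FDR were 1 to 2 with 1 library left out. Higher DEGs were 2 with upper-quartile factors, 2 with library totals and 1 with the replicate block, where *IRS2* was at 0.59, and 0 to 2 with 1 library left out. Lower DEGs were 0 at a 2-fold threshold. The cause was not tested. In settings run on the wider list and the neighbours after the data were seen, the wider list had 5 that rose in DESeq2, 5 to 7 with 1 library left out and 0 to 1 higher DEGs. Of 29 named genes outside the members, 0 changed sign in 493 refits and 9 lost the call in at least 1. A test against 1.5-fold itself (glmTreat) left *IGFBP2* as 1 lower DEG and called 151 lower and 114 higher genes in all, against 383 and 444. The deviations of the libraries from their group means gave no sign that the replicate numbers pair the samples. Those of libraries with the same number correlated at -0.094 to 0.0029 and those with other numbers at -0.083 to 0.15. No library correlated best with the one of its own number. Deviations within a group of 3 are tied to each other, so these values cannot show whether dishes of the same number were handled together. The block changed no other call of a member. Few reads limit *IRS2*, *IGFBP5* and *IGF2BP2*.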

Other observations

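*SLC22A3*, an organic cation transporter 236.874 kb from *IGF2R* and named after its values were seen, had 133, 134 and 155 reads in LNCaP parental and 10, 10 and 7 in PACT KO cells (log2 fold change -3.95, SE 0.19, edgeR FDR = 7.59e-20). *IGF2R* itself differed by -0.026 on the log2 scale and did not pass the FDR of 0.01.

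Levels per exon length were also divided within each library for pairs of members with like roles, 3 ratios chosen after the data were seen. *IGF1R* to *INSR* was 0.540 ± 0.043 in LNCaP parental and 0.617 ± 0.017 in PACT KO cells (SD, n = 3). *IRS2* to *IRS1* was 0.277 ± 0.032 and 0.452 ± 0.154, with PACT KO replicate 3 at 0.629 and the other 2 at 0.358 and 0.368. *IGFBP2* to *IGFBP3* was 7.27 ± 0.629 and 5.14 ± 0.159. The groups did not overlap in any of the 3 ratios, and each exact permutation test, 2-sided, gave p = 0.10, the smallest it can give (0.10 after Benjamini-Hochberg adjustment).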
